A study of Bos taurus with 2 samples.

Results

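SIX2, SIX4 and SIX5 are homeobox transcription factors of the sine oculis family, and EYA1, EYA2, EYA3 and EYA4 are the eyes absent proteins that work with such factors. These 7 genes were taken by name from the 21867 genes of the feature list, with earlier results of these data known. Each name matched 1 row, and all 7 had UMIs (unique molecular identifiers, each marking 1 captured RNA molecule). They were measured in a pair of 10x Genomics 3′ libraries, replicates 1 and 2, built from the same cultured satellite cells. The cells came from longissimus muscle of 1 male Holstein calf aged 2 weeks, were released with pronase and enriched by differential centrifugation, and grew for 1 week in DMEM with 10% fetal bovine serum. Both libraries hold the same untreated cells, so the comparisons are between clusters of cells within them, and the design has no second animal and no treatment.

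In muscle, SIX-family proteins bind regulatory DNA of myogenic genes, and EYA proteins, which do not bind DNA themselves, act as their co-activators and also carry a phosphatase domain. Together with PAX and DACH proteins they form a regulatory network that acts upstream of the myogenic regulators MYF5, MYOD1 and MYOG in the embryo and takes part in fibre type and regeneration later. Satellite cells are the stem cells of muscle fibres. Activated ones become myoblasts that carry MYOD1, and differentiating ones become myocytes that carry MYOG. Fibro-adipogenic progenitors, marked by PDGFRA, are connective tissue cells that share the muscle with them.

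The 19096 cells fell into 15 deposited clusters. The study called clusters 4, 5 and 8 satellite cells, clusters 1 and 2 myoblasts and clusters 3 and 12 myocytes, and these 7 are called myogenic here. It called clusters 7 and 9 fibro-adipogenic and left the other clusters unnamed. Levels here are CPM, the UMIs of a gene per 1000000 UMIs of a cluster, each given for replicate 1 and then replicate 2. MYOG was at 1806 and 1916 CPM in cluster 12 and at 32.4 and 19.7 in cluster 9, while PDGFRA was at 163 and 153 in cluster 9 and at 12.5 and 8.31 in cluster 12. Cluster 7 carried both kinds of marker, with PDGFRA at 123 and 174 and MYOG at 181 and 170 CPM. The satellite cell markers were scarce, with 176 UMIs of PAX7 and 316 of PAX3 in all, so the names of clusters 4, 5 and 8 rest on few UMIs. The endothelial markers CDH5 and PECAM1 had 28 and 45 UMIs over all cells. Of the immune markers, PTPRC had 1 UMI and CD68 had 580, at 18.96 and 10.7 CPM in cluster 7. Replicate 1 held 9939 cells and 145631299 UMIs, replicate 2 held 9157 cells and 137818568 UMIs, and 27 cell barcodes occurred in both. Clusters 7, 13, 14 and 15 were shallow, with medians of 1389, 1631, 2514 and 647 UMIs per cell against 5399 to 23011 in the other 11, and orders of levels below are over those 11.

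The 7 genes split into 4 patterns. EYA2, EYA3 and EYA4 were highest in cluster 12, where MYOG was highest. EYA1 was high in myoblast cluster 2 and in both myocyte clusters and low in satellite cell clusters 5 and 8 and in cluster 9. SIX5 was lowest in the 2 myocyte clusters and highest in clusters 10 and 8. SIX2 was highest in cluster 10 and in satellite cell cluster 8 and lowest in cluster 9. SIX4 had the smallest span of means, though not beyond its spread from those of SIX5 and EYA3.  A UMI count from the 3′ end does not scale with transcript length but depends on how well each 3′ end is captured, so levels are compared between clusters and not between genes.

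All 7 genes were sparse. Over all cells, SIX2 had 4798 UMIs, at 16.8 CPM in replicate 1 and 17.0 in replicate 2, and SIX5 had 2766 UMIs, at 9.70 and 9.82. SIX4 had 1124 UMIs, at 3.91 and 4.02 CPM. Among the EYA genes, EYA3 had 7020 UMIs, EYA4 5245, EYA1 3793 and EYA2 920. EYA2 was at 3.04 and 3.47 CPM, and the other EYA genes differed less between the libraries. Most positive cells held a single UMI, such as 1028 of the 1074 cells with SIX4 and 4250 of the 5471 with EYA3. The most in 1 cell was 8 UMIs, of EYA4.

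**Figure D1:**
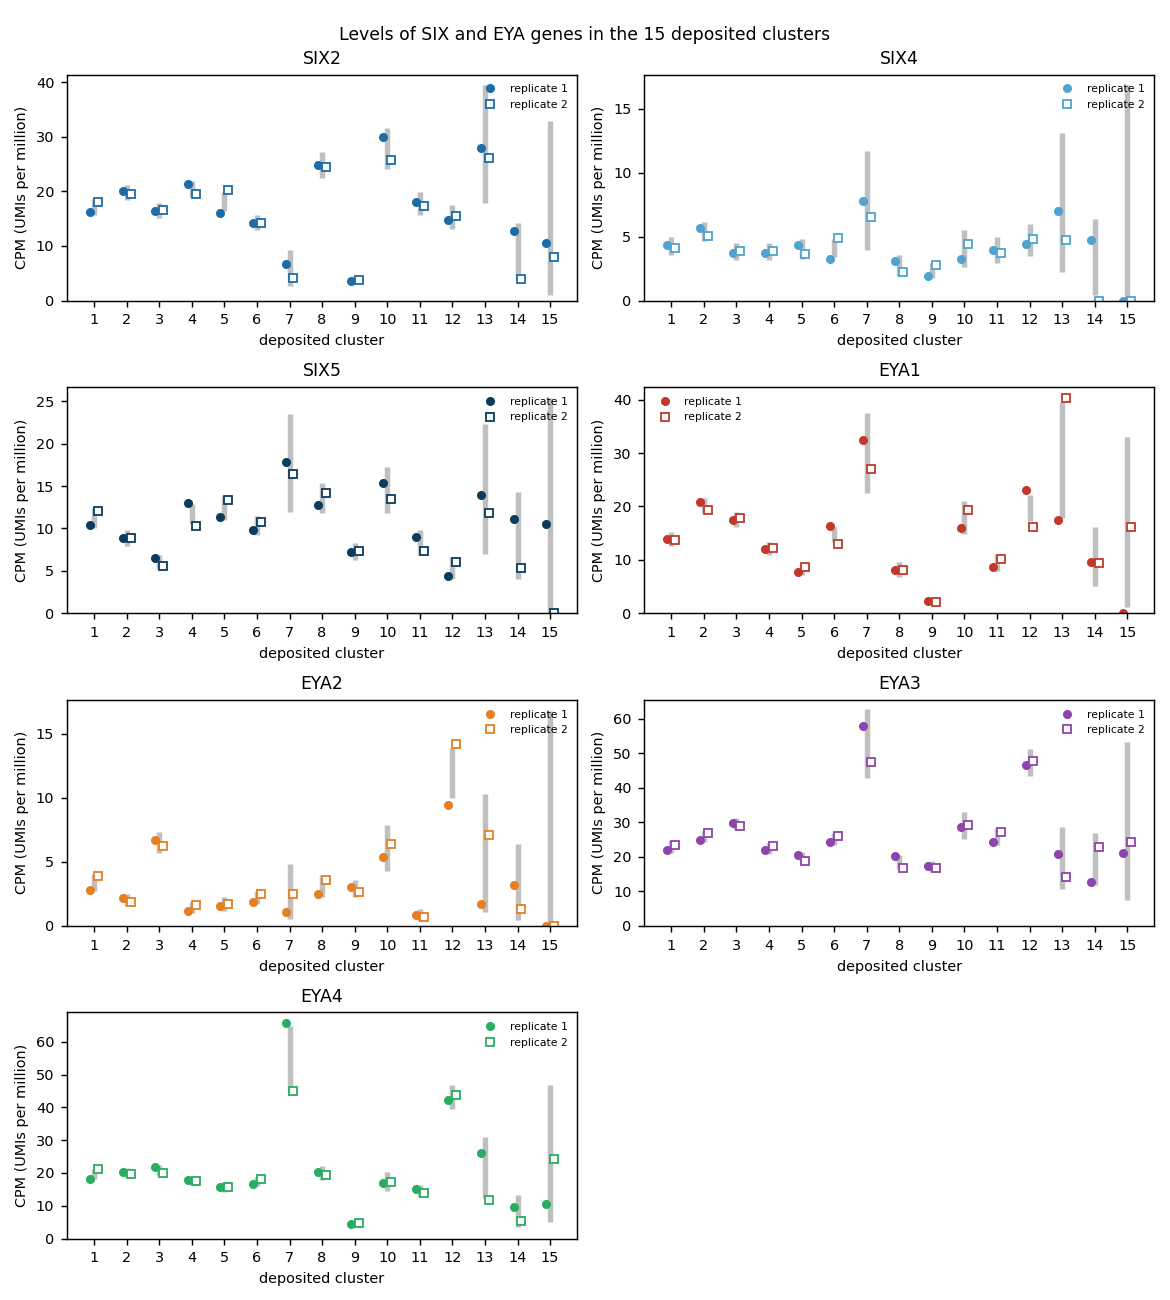
Each panel plots the level of 1 gene in CPM (UMIs per 1000000, vertical axis, from 0) in the 15 deposited clusters (horizontal axis). Filled circles are replicate 1, open squares are replicate 2, and grey bars are exact 95% Poisson intervals of both libraries together, which cover counting error only. EYA3 and EYA4 stand out in clusters 7 and 12, EYA2 in cluster 12, and SIX2, EYA1 and EYA4 are low in cluster 9.

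Among the SIX-family factors, SIX2, best known for keeping kidney progenitors undifferentiated, was at 29.99 and 25.7 CPM in cluster 10 and at 24.9 and 24.5 in cluster 8. Its lowest level was 3.59 and 3.86 in cluster 9, which makes the highest mean 7.47 times the lowest, and 11.7 times with doublets left out. Between these ends 6 clusters from cluster 4, at 20.4 ± 1.24 (SD, n = 2 libraries, as for all such values), to cluster 3, at 16.5 ± 0.134, formed a run in which each neighbour overlapped the next. Cluster 12 followed at 15.1 ± 0.496 and cluster 6 at 14.3 ± 0.00882. SIX2 thus differed little between MYOG-rich and MYOG-poor myogenic clusters other than cluster 8.

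SIX4, a factor that acts with a paralog in the activation of MYOG in the embryo, had the smallest span of means, from cluster 2 to cluster 9. Its ratio was 2.28 ± 0.81, against 2.76 ± 0.91 for SIX5 and 2.77 ± 0.13 for EYA3, so these spans were not told apart. Cluster 2 was at 5.64 and 5.07 CPM, cluster 12 at 4.39 and 4.79, and 7 clusters from cluster 1 down to cluster 3 ran from 4.23 to 3.79 with each neighbour overlapping the next. The lowest were cluster 8, at 3.06 and 2.21, and cluster 9, at 1.90 and 2.79, which overlapped each other.

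SIX5, whose gene lies beside DMPK, the kinase gene whose repeat expansion causes myotonic dystrophy, had its highest levels in cluster 10, at 15.4 and 13.5 CPM, and in cluster 8, at 12.8 and 14.2. From there clusters 5, 4, 1 and 6 followed, each overlapping the next, down to 10.3 ± 0.682. The myocyte clusters were lowest, with 6.50 and 5.54 in cluster 3 and 4.39 and 6.07 in cluster 12, and these overlapped. The 3 SIX-family genes thus had their lowest levels in different clusters, SIX5 in the myocytes and the other two in cluster 9.

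EYA1, the co-activator best known from branchio-oto-renal syndrome, ran from 20.8 and 19.3 CPM in cluster 2 to 2.32 and 2.05 in cluster 9, a ratio of means of 9.16, and of 17.7 with doublets left out. Clusters 2, 12, 10 and 3 were at 17.6 to 20.04 and overlapped in turn, although the libraries of cluster 12 lay apart, at 23.1 and 16.1. Clusters 6 and 1 overlapped at 14.7 ± 2.33 and 13.9 ± 0.134. Cluster 4 stood at 12.05 ± 0.126 and cluster 11 at 9.41 ± 1.06, each apart from its neighbours, above cluster 5 at 8.19 ± 0.595 and cluster 8 at 8.07 ± 0.0388, which overlapped. Cluster 2, at the top of this order, had MYOD1 at 702 and 642 CPM, and cluster 9, at its end, had 67.8 and 46.4. Cluster 12, next to the top, had MYOD1 at 410 and 383, below the 530 and 507 of cluster 1. Clusters 5 and 8 overlapped in EYA1 although MYOD1 was at 191 and 193 in cluster 5 and at 88.2 and 90.2 in cluster 8.

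EYA2, the gene with the fewest UMIs of the 7, spanned 15.4-fold, and its lowest level rests on 7 and 5 UMIs. Cluster 12 was at 9.43 and 14.2 CPM, cluster 3 at 6.71 and 6.21 and cluster 10 at 5.40 and 6.36, the latter pair overlapping. Clusters 1, 8 and 9 overlapped in turn between 3.35 and 2.83. Clusters 6 and 2 overlapped at 2.18 and 2.00, clusters 5 and 4 at 1.65 and 1.39, and cluster 11 lay apart at 0.767 ± 0.139. EYA2 was the only one of the 7 whose level in cluster 9 lay near the middle of the order.

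EYA3, the member of the family expressed in most tissues, was at 46.5 and 47.8 CPM in cluster 12, above cluster 3 at 29.8 and 28.9 and cluster 10 at 28.6 and 29.1, which overlapped. Clusters 2, 11 and 6 overlapped at 25.2 to 25.9, and clusters 1 and 4 at 22.8 ± 1.04 and 22.5 ± 0.713. Clusters 5, 8 and 9 came last, at 19.6, 18.4 and 17.0, each overlapping the next, so that the whole span was 2.77-fold. EYA4, best known as a gene of hereditary hearing loss and heart muscle disease, was at 42.3 and 43.8 CPM in cluster 12 against 21.8 and 20.03 in cluster 3. Clusters 3, 2, 8 and 1 overlapped at 19.7 to 20.9, clusters 4, 6 and 10 at 17.2 to 17.7, and clusters 5 and 11 lay apart at 15.7 ± 0.0350 and 14.4 ± 0.931. Only cluster 9, at 4.51 and 4.60, stood far below, and the span was 9.45-fold.

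In the shallow cluster 7 the EYA genes other than EYA2 were as high as anywhere. EYA4 was at 65.8 and 45.1 CPM, from 59 and 55 UMIs, EYA3 at 58.0 and 47.6, from 52 and 58 UMIs, and EYA1 at 32.3 and 27.1. SIX4 and SIX5 were also at their highest cluster means there, at 7.18 ± 0.880 and 17.1 ± 1.02, whereas SIX2 was at 5.40 ± 1.83, from 11 UMIs, and EYA2 at 1.79 ± 0.952, from 4 UMIs. Ribosomal protein genes took 8.95% and 8.84% of the UMIs of cluster 7 and 21.6% to 30.4% of those of the other clusters. Per 1000000 UMIs outside ribosomal protein genes, the levels in cluster 7 and in cluster 12 were 60.9 ± 16.1 and 56.9 ± 1.28 for EYA4 and 57.9 ± 8.14 and 62.3 ± 1.05 for EYA3. The part of the depth and of the ribosomal share in these levels was not tested. The other shallow clusters held 27 or fewer UMIs of each gene. Cluster 15 had 0 UMIs of SIX4 and of EYA2, which allows up to 13.7 CPM if 3 counts over both libraries are taken as the limit of a count of 0, and 16.8 CPM by the exact 95% interval.

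The next comparisons ask where along the myogenic clusters each gene changes. UMIs were summed per library and cluster, and 2 sums were compared with 2 by edgeR's quasi-likelihood test, with p-values adjusted by Benjamini and Hochberg over all genes tested and a call at an adjusted p under 0.05. Both libraries came from the same cells, so a p-value measures the spread between library preparations and not between animals or cultures. The clusters were also made from these same counts, and many genes differ between any pair of them. Each count from this main test is therefore set beside the share of all genes called.

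Between cluster 12 and cluster 3, the MYOG-richer and the MYOG-poorer myocytes, 3 of the 7 genes were higher in cluster 12 and none was lower. All 3 are EYA genes. Of the 10811 genes tested, 33.8% were called, with 18.2% higher. EYA4 rose by a log2 fold change of 1.13 ± 0.0866 (SE) with an adjusted p of 5.08e-05. EYA3 rose by 0.78 ± 0.0751 (adjusted p = 0.000176) and EYA2 by 0.97 ± 0.202 (adjusted p = 0.00808), and the libraries of the 2 clusters did not overlap for any of the 3. The change of EYA2 was 0.59 in replicate 1 alone and 1.27 in replicate 2 alone. SIX4, at 0.37 ± 0.213, EYA1, at 0.25 ± 0.158, SIX5, at -0.11 ± 0.221, and SIX2, at -0.03 ± 0.103, did not pass the test.

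Between cluster 3 and cluster 1, myocytes and myoblasts, 4 of the 7 genes were called, 3 higher and 1 lower, where 40.2% of 11362 genes were called, 21.1% higher and 19.1% lower. SIX5 fell by 0.86 ± 0.145 on the log2 scale (edgeR adjusted p = 0.0033), from 10.4 and 12.1 CPM to 6.50 and 5.54. EYA2 rose by 0.99 ± 0.195 (adjusted p = 0.00638), from 2.79 and 3.91 to 6.71 and 6.21. EYA3 rose by 0.40 ± 0.0710 (adjusted p = 0.00393) and EYA1 by 0.38 ± 0.0786 (adjusted p = 0.00772), and EYA1 lost its call under DESeq2, at an adjusted p of 0.123. EYA4 was at 0.13 ± 0.0962, SIX4 at -0.12 ± 0.165 and SIX2 at -0.01 ± 0.0844, none of them called. EYA4 was thus called between the 2 myocyte clusters and not between myocytes and myoblasts, while EYA2 and EYA3 were called at both steps.

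Between cluster 1 and the satellite cell cluster 8, 2 genes were called higher and 1 lower, where 34.1% of 11194 genes were called, 17.2% higher and 16.9% lower. EYA1 was at 13.97 and 13.8 CPM in cluster 1 against 8.04 and 8.10 in cluster 8, a log2 fold change of 0.82 ± 0.123 (edgeR adjusted p = 0.00144). SIX2 was lower in cluster 1 by -0.50 ± 0.0915 (adjusted p = 0.00388). EYA3 was higher by 0.34 ± 0.108 with an adjusted p of 0.0426, a call made in 4 of the 8 settings tried, and was 0.19 in replicate 1 alone and 0.53 in replicate 2 alone. Under DESeq2 only EYA1 was called. SIX4, at 4.37 and 4.09 against 3.06 and 2.21, had a log2 fold change of 0.71 ± 0.241 with an adjusted p of 0.0533, and of 0.0137 with the library as a block.

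Among the satellite cell clusters, cluster 5 was set against cluster 8, and 2 of the 7 genes were called lower, where 28.5% of 10948 genes were called and 12.2% were lower. SIX2 was lower in cluster 5, at 16.02 and 20.2 CPM against 24.9 and 24.5, with a log2 fold change of -0.45 ± 0.124 (edgeR adjusted p = 0.0301). EYA4 was lower by -0.34 ± 0.0997 (adjusted p = 0.0395). SIX2 was at -0.62 in replicate 1 alone and -0.28 in replicate 2 alone. Neither call held under DESeq2, and that of EYA4 was made in 5 of 8 settings. EYA2 was at 1.57 and 1.72 against 2.49 and 3.56, with an adjusted p of 0.076 and of 0.0181 with the library as a block. EYA1 did not differ beyond its error between these clusters, at 0.02 ± 0.149.

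Clusters 5, 4 and 2 differ in MYOD1, which was at 191 and 193, 271 and 272, and 702 and 642 CPM in that order. Clusters 4 and 2 may also differ from cluster 5 in proliferation. The study reported gene ontology terms of DNA synthesis and the cell cycle for that pair, and proposed active proliferation. The part of MYOD1 and of proliferation in the comparisons of these clusters was not tested. Between cluster 4 and cluster 5, EYA1 alone was called among the 7, at 11.96 and 12.1 CPM against 7.77 and 8.62, where 16.4% of 11311 genes were called and 9.16% were higher. Its log2 fold change was 0.53 ± 0.112 (edgeR adjusted p = 0.0204), and DESeq2 gave an adjusted p of 0.182. Between cluster 2 and cluster 4, EYA1 was again the only call, with 30.2% of 11561 genes called and 14.5% higher, at 0.72 ± 0.0807 (adjusted p = 0.0011). With the library as a block, 4 of the 7 were called in that comparison, where 47.1% of all genes were. The added ones were SIX4, higher by 0.48 (adjusted p = 0.0224), EYA3, higher by 0.19 (adjusted p = 0.0176), and SIX5, lower by -0.41 (adjusted p = 0.00411).

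Clusters 6 and 11, both unnamed by the study, also differ in MYOD1, at 607 and 544 CPM in cluster 6 and 130 and 141 in cluster 11. EYA1 was higher in cluster 6, at 16.3 and 13.04 against 8.65 and 10.2, by 0.71 ± 0.162 (edgeR adjusted p = 0.0247), with 0.98 in replicate 1 alone and 0.42 in replicate 2 alone. EYA2 was higher by 1.55 ± 0.381 (adjusted p = 0.0329), from 0.865 and 0.668 to 1.87 and 2.49 CPM. These 2 of the 7 were called where 16.5% of 11041 genes were and 8.75% were higher, and with the library as a block 4 were, where 31.4% of all genes were called, the added ones being EYA4 at 0.33 (adjusted p = 0.0186) and SIX5 at 0.39 (adjusted p = 0.0411). DESeq2 called neither EYA1 nor EYA2, with adjusted p-values of 0.0808 and 0.242. With doublets left out, 1 of the 7 was called, and the share of all genes called in that setting is not given here. SIX5 leaned up with MYOD1 in this pair and down between clusters 2 and 4, with edgeR adjusted p-values of 0.132 and 0.0604 without the block.

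**Figure D2:**
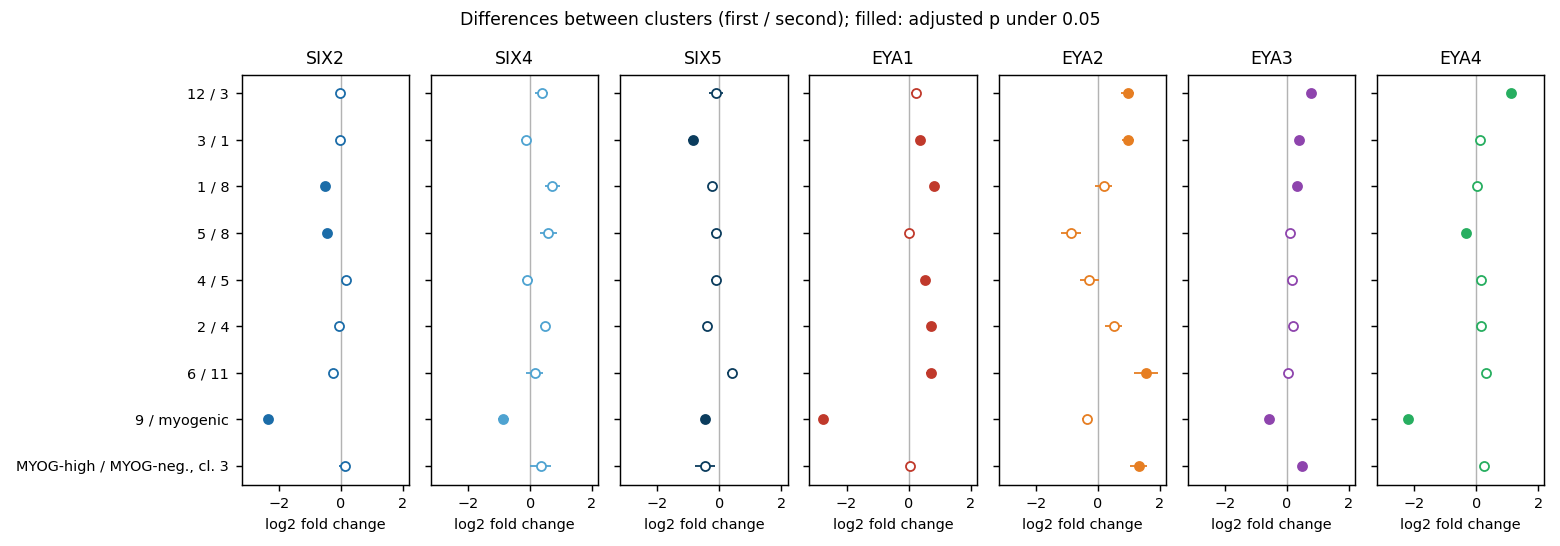
Each panel shows 1 gene, with the log2 fold change of the first over the second group (horizontal axis) for the 9 comparisons (rows, by cluster number). Points are edgeR estimates from 2 libraries, bars are their standard errors, and filled points passed an adjusted p under 0.05. EYA1, SIX2 and EYA4 lie farthest left in the comparison of cluster 9 with the myogenic clusters, and EYA2, EYA3 and EYA4 lie right of 0 in that of cluster 12 with cluster 3.

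Cluster 9, the deep fibro-adipogenic cluster, was compared with the sum of the 7 myogenic clusters. Of the 7 genes, 6 were lower in cluster 9, where 56.5% of 12941 genes were called in either direction and 27.6% were lower. EYA1 was at 2.32 and 2.05 CPM against 14.9 and 14.3 (log2 fold change -2.75 ± 0.107, edgeR adjusted p = 2.94e-05). SIX2 was at 3.59 and 3.86 against 18.6 and 19.0 (-2.36 ± 0.0813, adjusted p = 2.1e-05), and EYA4 at 4.51 and 4.60 against 20.6 and 20.7 (-2.20 ± 0.0727, adjusted p = 1.79e-05). SIX4, EYA3 and SIX5 differed less. SIX4 was lower by -0.86 ± 0.192, EYA3 by -0.59 ± 0.0576 and SIX5 by -0.47 ± 0.0812, with adjusted p-values of 0.0127, 0.000578 and 0.00502. EYA2, at 3.03 and 2.63 against 3.33 and 3.84, was not called (-0.36 ± 0.163, adjusted p = 0.114). These 6 calls held in all 8 settings tried.

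Cluster 9 also held UMIs of genes that define muscle, which bears on how low its SIX-family and EYA levels are. As a percentage of the level in the myogenic clusters, MYOG was at 9.41 ± 3.40%, MYF5 at 12.1 ± 0.156% and MYOD1 at 12.9 ± 2.91%. On the same scale EYA1 was at 14.98 ± 0.912%, SIX2 at 19.8 ± 0.661% and EYA4 at 22.1 ± 0.211%. SIX4 was at 56.8 ± 17.4%, EYA3 at 67.2 ± 2.37%, SIX5 at 73.4 ± 0.166% and EYA2 at 79.6 ± 15.9%. When the 13.98% of its cells with the highest doublet scores were left out, MYOG fell to 3.45% and MYOD1 to 4.57%. EYA1 was then at 7.98 ± 4.46%, SIX2 at 12.5 ± 3.88% and EYA4 at 16.03 ± 3.28%, while EYA2, EYA3 and SIX5 stood at 78.6%, 63.4% and 70.6%. The part of RNA from muscle cells in the EYA1, SIX2 and EYA4 counts of cluster 9 was not tested.

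The makeup of each family differed accordingly. EYA3 made up 64.0 ± 0.361% of the EYA UMIs in cluster 9, from 702 UMIs, against 51.2 ± 2.00% in cluster 11 and 37.2 ± 3.19% in cluster 8. EYA1 was 8.23 ± 0.451% there and 23.7 ± 1.04% in cluster 3. Of the UMIs of SIX2, SIX4 and SIX5, SIX5 made up 54.5 ± 3.05% in cluster 9 and 20.8 ± 3.12% in cluster 12. EYA4 took 40.3 ± 0.499% of the EYA UMIs in cluster 8 and 35.4 ± 0.748% in cluster 12.

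**Figure D3:**
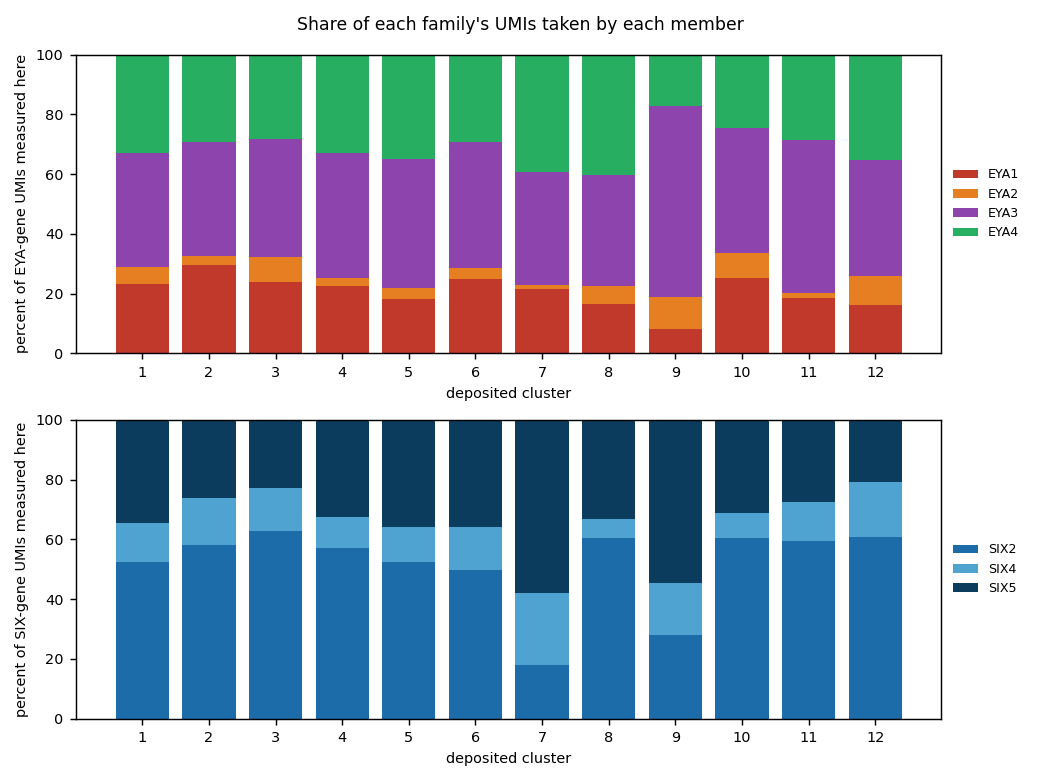
Stacked bars give the mean percentage over the 2 libraries (vertical axis) of the UMIs of the 4 EYA genes (top) and of SIX2, SIX4 and SIX5 (bottom) that each gene took, in clusters 1 to 12 (horizontal axis). EYA3 takes 64.0% in cluster 9, and SIX5 takes 54.5% of the lower bar there. These are shares of UMIs, which also depend on how well each 3′ end is captured.

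To see the genes along MYOG without the borders of clusters, cells of the 7 myogenic clusters with at least 5000 UMIs were placed in 4 bins by their MYOG UMIs per 10000 UMIs. The bins held 7441 cells at 0, 2680 above 0 and under 5, 1283 from 5 to under 20, and 446 at 20 or more. EYA3 stepped up through the bins, from 21.8 ± 0.716 CPM to 26.0 ± 0.618, 34.9 ± 0.0304 and 43.6 ± 2.94. EYA4 went from 18.1 and 18.8 in the libraries to 20.7 and 19.3, with little change in that step, and then to 27.1 ± 0.186 and 36.5 ± 1.73. EYA2 went from 1.95 ± 0.192 to 3.61 ± 0.292, 8.31 ± 0.236 and 13.4 ± 4.58. Its highest bin was 2.73 ± 0.363 above the bin at 0 on the log2 scale, against 1.00 ± 0.145 for EYA3 and 0.99 ± 0.0292 for EYA4.

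The remaining genes behaved differently over the same bins. EYA1 went from 13.1 ± 0.0629 to 15.1 ± 0.702, 19.1 ± 0.644 and 19.8 ± 2.78, levelling off in the last step. SIX5 went down from 11.2 ± 0.288 to 9.33 ± 0.0728 and 5.68 ± 0.0712, and stood at 5.36 ± 0.118 in the highest bin. SIX2 was at 19.1, 18.8 and 18.1 in the first bins and at 15.8 ± 1.79 in the last. SIX4 was between 4.06 and 4.45 in all 4, with no order beyond the spread of its libraries. Median depth was 14690 to 17349 UMIs per cell over the bins. The bins were cut in cells of the same libraries, so these values are a description with no test.

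**Figure D4:**
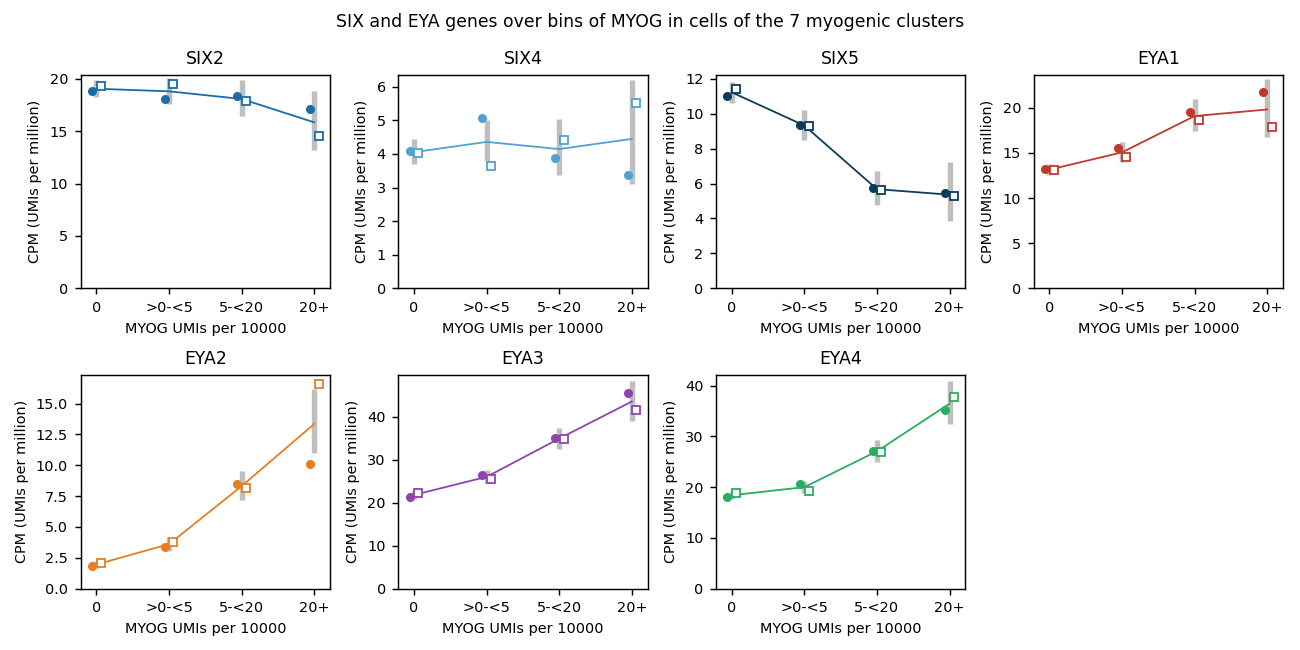
Each panel plots 1 gene in CPM (vertical axis, from 0) over 4 bins of MYOG UMIs per 10000 (horizontal axis) in cells of the 7 myogenic clusters. Filled circles are replicate 1, open squares replicate 2, lines join their means and grey bars are exact 95% Poisson intervals. EYA2, EYA3 and EYA4 climb, SIX5 goes from 11.2 to 5.68 by the bin from 5 to under 20, and SIX4 stays between 4.06 and 4.45.

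The same was tested inside 1 cluster. Within cluster 3, among cells with at least 5000 UMIs, the 469 and 412 with at least 5 MYOG UMIs per 10000 were compared with the 264 and 215 with no MYOG UMI. EYA2 was at 9.34 and 8.16 CPM against 3.99 and 3.02, a log2 fold change of 1.32 ± 0.276 (edgeR adjusted p = 0.0209). EYA3 was at 33.4 and 31.2 against 23.9 and 22.8, a log2 fold change of 0.48 ± 0.117 (adjusted p = 0.0437). These 2 of the 7 genes were called where 5.63% of 9821 genes were and 3.33% were higher, and the other 5 had adjusted p-values from 0.402 to 0.932. EYA4 was at 0.24 ± 0.132 and SIX5 at -0.46 ± 0.314. DESeq2 called none of the 7, with 2 at an unadjusted p under 0.05. With doublets left out, edgeR called 1 of them, with no share of all genes given for that setting.

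The genes were also placed over bins of MYOD1. MYOD1, the regulator that commits cells to muscle, was at 0 in 1813 of these cells and at 6 or more UMIs per 10000 in 3376. EYA1 went from 7.87 ± 0.813 CPM to 13.03 ± 0.663, 16.3 ± 0.363 and 17.8 ± 0.479, so that the highest bin was 1.18 ± 0.188 above the lowest on the log2 scale. EYA2 differed by 1.10 ± 0.493, which overlaps the value of EYA1. EYA4 differed by 0.51 ± 0.0411, EYA3 by 0.29 ± 0.118 and SIX4 by 0.26 ± 0.0525. SIX2 differed by -0.25 ± 0.0729 and SIX5 by -0.38 ± 0.0109. These bins were chosen after the MYOG bins had been seen.

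**Figure D5:**
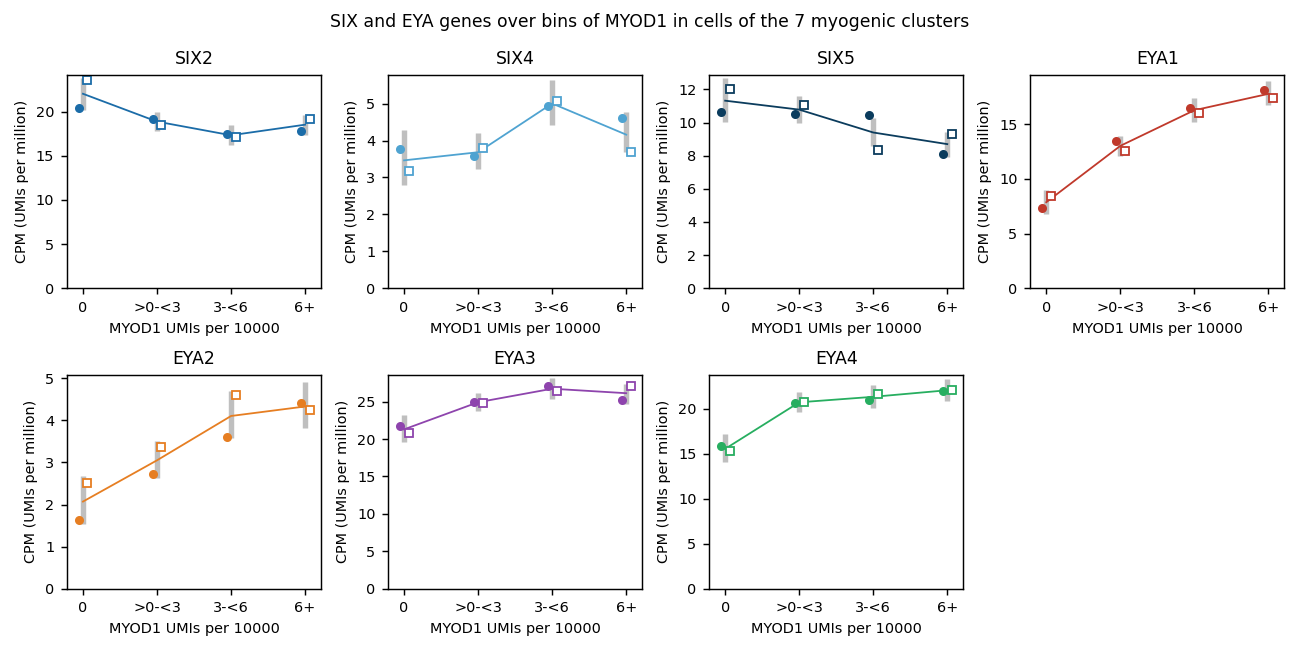
Each panel plots 1 gene in CPM (vertical axis, from 0) over 4 bins of MYOD1 UMIs per 10000 (horizontal axis), with symbols for replicates 1 and 2, means and exact 95% Poisson intervals as in the plot over MYOG. EYA1 climbs from 7.87 to 17.8 CPM, with 13.03 in the bin next to 0.

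Across the 11 deeper clusters, which share their libraries and differ in depth, the levels ran together in part. Pearson's r was taken throughout on log2 of the mean CPM plus 1. It was 0.904 between EYA1 and MYOD1, 0.868 between EYA2 and MYOG, and 0.838 between EYA3 and MYOG. For SIX2 with MYF5 r was 0.805, and both were lowest in cluster 9. Cluster 10, highest in SIX2, had MYF5 at 61.6 and 60.2 CPM, below the 160 and 150 of cluster 1. Cluster 8, next in SIX2, had MYF5 at 164 and 149. Between a SIX-family and an EYA gene the highest r was 0.834, of SIX4 with EYA1, while SIX5 lay between -0.539 and -0.0433 with the 4 EYA genes. The genes most like each of the 7 over these clusters, among 8726 genes compared, were ITGA7 (r = 0.974) and RUNX1 (r = 0.973) for EYA1, CYB5R1 (0.981) for EYA4, STRN3 (0.965) for EYA2, and RPAP1 (0.954) for EYA3. For the SIX-family genes they were NTN4 (0.966) for SIX2, HMCES (0.930) for SIX4 and SHKBP1 (0.960) for SIX5. The others of the 3 closest were STRIP2 for EYA1, SNX24 and TGFB2 for EYA4, USB1 and TMEM63B for EYA2, and TPD52 and MB, the myoglobin gene, for EYA3. For the other three they were CHRDL1 and NPEPL1 for SIX2, HADH and MSC for SIX4, and PTPN18 and TXNDC5 for SIX5. None of the 3 closest genes of any of the 7 stayed among the 3 closest when all 15 clusters were used.

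The ARS-UCD2.0 annotation was used here only for gene order. In it SIX5 lies beside DMPK, EYA1 beside MSC, a basic helix-loop-helix repressor, and EYA4 beside TCF21, a regulator of mesenchymal cells. Their neighbours on the other side, MEIOSIN, XKR9 and RPS12, were not compared. SIX5 and DMPK went in opposite directions from cluster 1 to cluster 3. DMPK rose by 1.04 ± 0.191 on the log2 scale (edgeR adjusted p = 0.00471), from 14.8 and 9.69 CPM to 26.9 and 22.0, where SIX5 fell by 0.86. Between cluster 1 and cluster 8, DMPK was higher in cluster 1 by 2.12 ± 0.277 (adjusted p = 0.000699), and SIX5 was at -0.23 ± 0.130 and not called. Over the 11 clusters r was -0.501 for SIX5 with DMPK, 0.916 for EYA1 with MSC and -0.825 for EYA4 with TCF21. Such values were not particular to neighbours. TCF21 had -0.877 with SIX2 and -0.836 with EYA1, and MSC had 0.876 with SIX4.

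Of 13 further names of the network, which are PAX, DACH, SIX-family and TLE genes, SOBP and AES, the number tested was 4 to 9 in a comparison. DACH2 had 1 UMI, SIX6 had 0 and TLE5 had no row of that name. TLE4, a Groucho corepressor, was higher in cluster 12 than in cluster 3 by 0.39 ± 0.0768 and higher in cluster 3 than in cluster 1 by 0.49 ± 0.0873 (edgeR adjusted p = 0.00616 and 0.0042). In the first of these it was the 1 partner called of 6 tested, where 33.8% of all genes were called, with a median log2 fold change of 0.21 against -0.02 over all genes. In the second, PAX7 (-2.20 ± 0.472) and DACH1 (-1.19 ± 0.333) were called lower, so that 3 of 8 tested were called, where 40.2% of all genes were. DACH1, a corepressor of the network, was also lower in cluster 1 than in cluster 8 by -1.64 ± 0.221, in cluster 2 than in cluster 4 by -1.54 ± 0.177 and in cluster 6 than in cluster 11 by -1.39 ± 0.191. It was not called between cluster 4 and cluster 5, at -0.21 ± 0.134, or between cluster 12 and cluster 3, at 0.22 ± 0.448. In cluster 9 against the myogenic clusters, of 9 tested, 4 partners were higher and 4 lower, where 56.5% of all genes were called and 27.6% were lower. DACH1 was higher by 2.27 ± 0.0919, TLE1 by 1.87 ± 0.337, SOBP, a SIX-binding protein, by 1.56 ± 0.0733 and TLE3 by 0.83 ± 0.140. PAX7, PAX3, TLE4 and AES were lower, by -2.57 to -1.01.

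Of 7 myogenic regulators tested, 5 were higher and 2 lower in cluster 12 than in cluster 3, with a median log2 fold change of 0.92, where 33.8% of all genes were called and 18.2% were higher. A further list held 14 genes described as targets of the sine oculis family, to which SIX2, SIX4 and SIX5 belong. Of these, 12 were tested in cluster 12 against cluster 3. There 8 were higher and 2 lower, with a median of 1.06 against -0.02 over all genes. In cluster 9 against the myogenic clusters the same 12 targets gave 3 higher and 7 lower, with a median of -1.36 against -0.01 over all genes. Of all genes, 56.5% were called and 27.6% were called lower. The target list includes muscle genes such as TNNC1, TNNI2 and CKM. The part of SIX-family proteins and that of differentiation in these counts were not tested. CKM, the muscle creatine kinase gene, went from 0.951 and 1.04 CPM in cluster 3 to 55.3 and 51.5 in cluster 12. GDNF and PVALB, of the same list, had 277 and 28 UMIs in all.

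Shares of cells with a UMI were compared after each cell was thinned to 5000 UMIs, which left out 3100 shallower cells. EYA3 was then found in 11.4% of cells, EYA4 in 8.75%, SIX2 in 7.82%, EYA1 in 6.25%, SIX5 in 4.66%, SIX4 in 2.00% and EYA2 in 1.51%. Without thinning the shares were 28.6% for EYA3, 21.8% for EYA4, 19.4% for SIX2, 16.6% for EYA1, 12.8% for SIX5, 5.62% for SIX4 and 3.98% for EYA2, at a median of 14889 UMIs per cell. In cluster 12, thinned EYA3 was in 20.7% of 613 cells, EYA4 in 16.3% and EYA2 in 5.06%. In cluster 9, of 1080 cells, EYA1 was in 0.741%, SIX2 in 1.85% and EYA4 in 2.41%, against 9.77%, 8.49% and 10.0% in cluster 2.

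Cells with a UMI of both a SIX-family and an EYA gene were counted beside the numbers that single genes and the depth of each cell would give. Of the 15996 cells with at least 5000 UMIs, 9378 had a UMI of any EYA gene, 6009 of SIX2, SIX4 or SIX5, 3759 of both and 4368 of neither. Cells with both had a median of 18160 UMIs and cells with neither 14431. Over the 21 pairs of genes, cells with both numbered 0.916 to 1.25 times the product of the single shares. A second expected number spread the UMIs of each gene over the cells of a cluster and library by depth, as independent Poisson counts. Ratios to it were 0.704 to 1.06. SIX4 with SIX5 gave the highest of these and SIX4 with EYA2 the lowest, the latter from 45 cells. Among SIX-family and EYA pairs the highest was 1.01, of SIX4 with EYA4. SIX2 with EYA4 had 1040 cells against 1164, and SIX2 with EYA1 810 against 897. That number is too high where the UMIs of a gene gather in few cells, so ratios under 1 are not read as a deficit.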

How the data were processed

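A pair of single-cell libraries of the same cultured cells were measured. Per the labels and the study's methods, the authors aligned reads to ARS-UCD1.2 and counted UMIs with Cell Ranger 3.0.2, combined the libraries after equalising mapped reads per cell, and deposited whole-number UMI counts per gene and cell (21867 genes, 19096 cells). The authors also deposited, for 16816 genes, average counts per cluster scaled to a common total, with their own fold changes and p-values, which were not used. The library of a cell was read from the number ending its barcode. The deposited averages convert to UMI sums per gene and cluster (at most 0.000107 from whole numbers), and they fixed which cells each cluster holds, with 0 of 252240 sums differing. The 2 libraries differed by more than sampling noise (chi-square per degree of freedom 32.2 over 13782 genes).

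The 7 genes, the gene lists and the tests were chosen with earlier results of these data known. Counts were summed per library and cluster and tested with edgeR 4.0.16 (filterByExpr, TMM, quasi-likelihood, Benjamini-Hochberg) in R 4.3.3, each comparison fitted on its own 4 sums. DESeq2 1.42.0, no filter, no TMM, a library block, doublets left out (the top 8% of Scrublet scores per library, 795 and 733 cells), assignment of cells by UMI profile and 1 shared fit were alternatives. No doublets were left out of main values. Sums of the same library pair by their origin, and their deviations correlated at 0.307 to 0.621. On simulated counts with 200 genes changed 2-fold, the test recovered from 73.5% to 84.5% of them. The lowest share was within cluster 3 (9822 genes) and the highest between clusters 6 and 11 (11041 genes). Of the simulated calls, 8.89% were false for clusters 4 and 5, 6.98% for 5 and 8 and 6.47% for 3 and 1. The false share was 6.32% for 1 and 8 and 5.59% for 6 and 11. These shares lay above what the adjusted p threshold aims at. In the other comparisons it was 4.91% (cluster 9), 4.55% (within cluster 3), 4.17% (12 and 3) and 2.53% (2 and 4). Each comparison was simulated with 1 draw, so small distances from that aim are not told apart from it. The 4 sums were drawn independently, so the pairing of sums by library was not simulated. Intervals are exact at 95% and cover counting error only. The genes named as most like each of the 7 are the 3 with the highest Pearson's r of log2 (mean CPM plus 1) over 11 clusters. Other named genes come from the lists of partners, regulators and targets, the cell type markers and the neighbours in gene order. The median log2 fold change of all genes shifted by at most 0.10 without TMM. Sequences of the 7 genes were not used here.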

Additional observations from a re-analysis of the deposited data

How the results depend on the processing

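No gene changed direction where it was called. Counts of all genes called were lower under DESeq2, at 2218 (clusters 12 and 3), 2772 (3 and 1), 2265 (1 and 8), 1649 (5 and 8), 946 (4 and 5), 2117 (2 and 4), 1052 (6 and 11) and 270 (MYOG-high against MYOG-negative) against 3650, 4562, 3812, 3120, 1859, 3497, 1818 and 553. Under DESeq2, of the 7 genes, 1 was called between clusters 1 and 8 and 0 in 4 comparisons, namely 5 and 8, 4 and 5, 6 and 11, and within cluster 3, with 1, 1, 2 and 2 at an unadjusted p under 0.05, where edgeR called 2, 1, 2 and 2. With a library block, which pairs the sums, 3979 (4 and 5), 5448 (2 and 4), 3471 (6 and 11) and 1246 (within cluster 3) genes were called, and 4 of the 7 genes in each of 2 and 4 and 6 and 11. Beyond these and the 2 block results given above it changed no other call of the 7. Between clusters 2 and 4, 2 of the 7 were called with doublets left out, 4 by profile assignment and 2 in the shared fit. With doublets left out, 1 was called between clusters 6 and 11 and 1 within cluster 3, and without a filter 1 between clusters 5 and 8. Shares of all genes called in these settings are not given here, so these counts cannot be set against other genes. The ratio of the highest to the lowest cluster level moved with doublets left out to 11.7 (SIX2), 17.7 (EYA1), 2.99 (EYA3) and 13.1 (EYA4), and by profile assignment to 10.2 (EYA1), 24.5 (EYA2) and 9.76 (EYA4). The thinned share of cells moved with the depth kept, by construction: at 2000 UMIs it was 3.33% (SIX2), 0.814% (SIX4), 2.15% (SIX5), 2.77% (EYA1), 0.634% (EYA2), 4.92% (EYA3) and 3.73% (EYA4), and unthinned 19.4%, 5.62%, 12.8%, 16.6%, 3.98%, 28.6% and 21.8%. Apart from these shares, the cause of the changes was not tested. The ratios over MYOG bins moved by less than the spread between libraries in cells with at least 10000 UMIs and with doublets left out. With 1 library alone, 3 log2 fold changes moved by more than the spread without replicate 1 and 8 without replicate 2, of 63 each. That spread was itself the SD of the single-library values, and the main value mostly lies between them. Few could therefore move beyond it, and these counts do not show how stable the values are. The libraries share 1 animal and 1 culture, so no value measures the spread between animals, and counts of EYA2 and SIX4 are the thinnest.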
